A study of Mus musculus with 9 samples.

Results

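The 40 mitosis and cytokinesis genes described here were taken by symbol from a table of 56953 genes, and all 40 had a row in it. They were set apart by role: 5 genes of mitotic entry, 6 mitotic kinases, 9 kinesins, 6 genes of the kinetochore, centromere and spindle checkpoint, 2 genes that trigger anaphase, 3 subunits of the chromosomal passenger complex besides its kinase, 5 genes of the spindle and of mitotic chromosomes, and 4 cytokinesis genes. The study infected cultured mouse cardiac fibroblasts with adenovirus and sequenced their polyadenylated RNA 72 h later. Ad-JP2 cells received a virus for junctophilin-2 (JP2), a membrane protein encoded by Jph2 that holds the endoplasmic or sarcoplasmic reticulum close to the cell surface. Ad-shJP2 cells received a virus with a short hairpin RNA against JP2, and Ad-GFP cells received a control virus for green fluorescent protein. Each group had 3 libraries. All 3 groups shared their source and handling: wildtype C57BL/6N male adult mouse hearts, enzymatic digestion, removal of cardiomyocytes by settling, growth of the attached cells to near confluency in serum, and a virus. Nothing in the labels ties a replicate to a culture or an animal of its own, or says whether hearts were pooled, so the p-values measure the spread between these libraries, which may be technical.

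Mitosis begins when cyclin B with Cdk1 phosphorylates a large set of proteins, after which chromosomes condense, the spindle assembles and kinetochores attach to its microtubules. The spindle checkpoint holds the anaphase-promoting complex back until every chromosome is attached. Separase then cuts cohesin, and the central spindle and an actomyosin ring divide the cell. Most of these genes are transcribed late in the cell cycle, from promoters that often hold a cell-cycle homology region element (spelled TTTGAA or TTTAAA) near the transcription start and CCAAT boxes upstream of it. Cardiac fibroblasts divide little in the healthy adult heart and proliferate in culture and after injury.

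Such promoter elements are a sequence feature that the choice of genes did not use. RefSeq promoters of the build GRCm38.p6, 250 bases before to 50 bases after each start, were at hand for 34 of the 40 genes, all but Ccna2, Cdc25c, Aurkb, Kif20a, Incenp and Tpx2. The letters TTTGAA stood on either strand in 26 of these 34 (76.5%), against 20.2% of the promoters of all 27025 genes in that table. TTTAAA stood in 9 (26.5%, against 14.9%), TTTGAA or TTTAAA in 29 (85.3%, against 30.6%) and CCAAT in 24 (70.6%, against 41.1%). The capitals in the 5 stretches below mark these letters, or the letters that spell them on the other strand. TTTAAA reads the same on both strands. The stretches are 30 bases long, on the minus strand of their chromosome, and show 2 genes that were higher and 3 that were lower in Ad-shJP2 than in Ad-GFP.
Aurka, chr2:172370536-172370565: tttgactcctatTTTAAAaggagaaccttt
Ccnb1, chr13:100786511-100786540: agcggcccggggTTTAAAcctaagcccggc
Kif23, chr9:61946780-61946809: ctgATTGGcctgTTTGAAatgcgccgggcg
Anln, chr9:22389168-22389197: ggggcgctgaaaTTCAAAtTTTGAAcggcc
Ect2, chr3:27153829-27153858: gagagagcgactggattttTTTGAAtcgga
The TTTAAA of Ccnb1 began 42 bases before the annotated start. In the other 4 genes the first TTTGAA or TTTAAA shown lay just past the start, from base 3 in Kif23 to base 40 in Ect2. Both directions carried them: TTTGAA or TTTAAA was present in 12 of the 13 genes with a promoter that were higher in Ad-shJP2 than in Ad-GFP (92.3%), in all 8 that were lower (100%) and in 4 of 7 that were tested and not called (57.1%). CCAAT was present in 10 of 13, 6 of 8 and 5 of 7. A match is a run of letters, and binding was not measured.

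Estimated depth was 36.96 to 40.82 M reads in Ad-JP2, 21.29 to 33.25 M in Ad-shJP2 and 40.28 to 45.68 M in Ad-GFP. Values are TPM, a level per length that sums to the same total in every library. The depths were derived from the steps between low TPM values and are approximate. Of these low values, 94.09% fell within 0.1 of a whole read in the third Ad-GFP library, and 38.41% to 62.34% in the others. By these estimates 3 reads on a transcript of 1000 bases correspond to 0.0873 to 0.1755 TPM, which covers counting error only. Jph2 itself had 737, 691 and 637 TPM in Ad-JP2 and 116.5, 123 and 119 TPM in Ad-shJP2, against 132, 127.5 and 128 TPM in Ad-GFP. It was 5.32-fold higher in Ad-JP2 than in Ad-GFP (limma adjusted p = 3.07e-08) and differed by -7.58% in Ad-shJP2 against Ad-GFP, which did not pass the test (adjusted p = 0.0724), so in this fit the target's own RNA does not check the label Ad-shJP2. The libraries of Ad-shJP2 were below those of Ad-GFP without overlap, and after a correction for GC content and length, described further on, the difference of -0.11 passed (adjusted p = 0.0203). The sum of 10 fibroblast markers was 4391.7 to 4530.7 TPM in Ad-JP2, 2544.9 to 2612.5 TPM in Ad-shJP2 and 4174 to 4230.9 TPM in Ad-GFP, and all 10 were tested. The sum of 10 macrophage and leukocyte markers, all tested, was 2523.1 to 2565.5 TPM in Ad-JP2, 3187.8 to 3236.7 TPM in Ad-shJP2 and 2740.2 to 2777.3 TPM in Ad-GFP. Most of it is Lyz2, at a mean of 2023 TPM in Ad-shJP2. In Ad-shJP2 against Ad-GFP 6 leukocyte markers were called higher and 3 lower (Ptprc, Mrc1 and Itgam). Of the fibroblast markers 9 were lower and 1 higher (Thy1). All genes tested in this comparison had 21.8% higher and 37.7% lower. The 10 endothelial markers summed to 39.554 to 51.747 TPM over all 9 libraries and the 10 cardiomyocyte markers to 20.822 to 33.8 TPM, and no marker on these lists was at 0 in every library. Both fibroblast and leukocyte RNA was thus abundant in all groups. Fewer cells of a type and less RNA per cell cannot be told apart in such bulk samples, and the part of the leukocyte markers in the results below was not tested.

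The summed level of the 40 genes was 808.3, 839.4 and 826.5 TPM in Ad-JP2, 1334.7, 1315.4 and 1345.4 TPM in Ad-shJP2 and 799.4, 828.5 and 820.9 TPM in Ad-GFP. All Ad-shJP2 libraries were above all others in this sum, and Ad-JP2 and Ad-GFP overlapped. The number of the 40 genes that reached 1 TPM ran the other way: it was 34 in every Ad-JP2 library, 28 or 29 in Ad-shJP2 and 29 to 31 in Ad-GFP. The same order held over all genes of the table, with 13772 to 13931 at 1 TPM in Ad-JP2, 13076 to 13160 in Ad-shJP2 and 13564 to 13621 in Ad-GFP. The sum rests on a few abundant genes, led in Ad-GFP by Cdk1, Cenpa and Cdc20 at means of 113, 84.5 and 70.0 TPM. Levels of single genes spanned from these down to genes of a few reads.

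**Figure D1:**
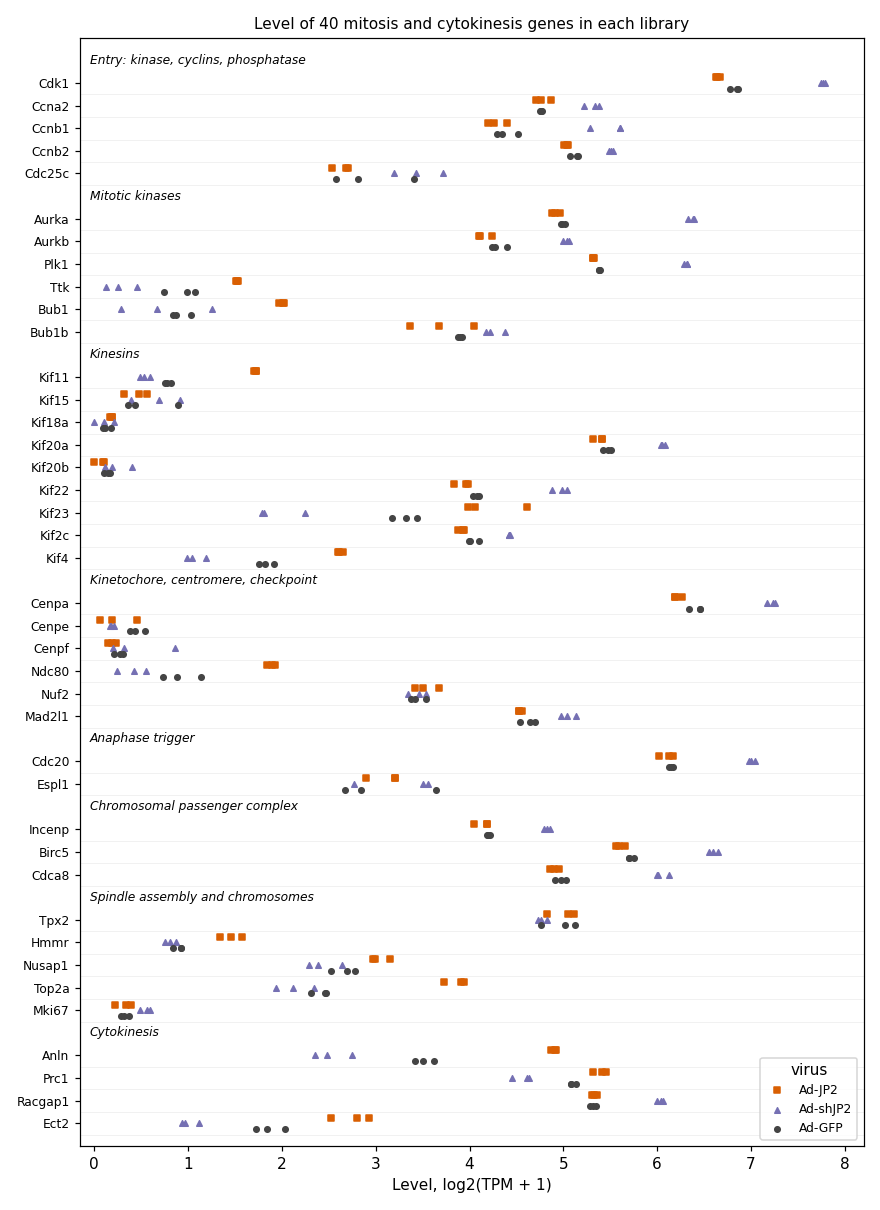
Level of each of the 40 genes on the log2(TPM + 1) scale (horizontal axis), grouped by role, with 1 symbol per library: squares Ad-JP2, triangles Ad-shJP2, circles Ad-GFP, 3 of each. Abundant genes such as Cdk1, Aurka and Plk1 have their triangles farthest right, while in Anln, Kif23 and Ect2 the squares are farthest right and the triangles farthest left.

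Differences were tested with limma on log2(TPM + 1) for the 14215 genes with at least 1 TPM in at least 3 libraries, with a call at a Benjamini-Hochberg adjusted p under 0.05 over all of them. Of the 40 genes 34 were tested. Kif11 and Hmmr entered through their Ad-JP2 libraries alone, so a difference involving Ad-JP2 was built into their being tested, and no Ad-shJP2 library reached 1 TPM for Ttk and Ndc80. Across the 3 groups, 31 of the 34 differed by the moderated F-test, against 63.7% of all genes tested. The exceptions were Nuf2 (adjusted p = 0.54), Espl1 (adjusted p = 0.751) and Tpx2 (adjusted p = 0.146). Both comparisons with the control virus use the same 3 Ad-GFP libraries and are not independent, so their values are given side by side.

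In Ad-JP2 against Ad-GFP, 11 of the 34 tested genes were higher and 2 were lower, 13 in all, where 13.4% of all genes tested were higher and 1.64% lower, 15% in all. The 3 libraries of each group did not overlap in 22 of the 34, against 32.2% of all genes tested. The higher ones were Ttk, Bub1, Kif11, Kif23, Kif4, Ndc80, Hmmr, Top2a, Anln, Prc1 and Ect2, and all of them except Prc1 differed at least 2-fold in mean TPM. The lower ones were Cdk1 and Cenpa, and neither differed 2-fold. The median log2 difference over the 34 was -0.01, and over all genes tested it was 0.01. Since the 11 include Kif11, Hmmr, Ttk and Ndc80, whose being tested rested on how their groups differ, the counts cannot be read against these shares alone: of the 30 genes with 1 TPM or more in a library of every group, 7 were higher and 2 lower. The 7 still include Bub1, which reached 1 TPM in 3 Ad-JP2 libraries but in 1 library each of Ad-shJP2 and Ad-GFP. It would not have been tested without Ad-JP2. The share of all genes under this stricter rule was not counted. Without a filter on low values, all 40 gave the same counts of 11 and 2. With quantile normalization 11 were higher and 10 lower, the added ones being Ccnb2, Aurka, Aurkb, Plk1, Kif20a, Kif22, Kif2c and Birc5; all genes tested then had 1462 higher and 748 lower, against 1902 and 233 before.

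In Ad-shJP2 against Ad-GFP, 17 of the 34 were higher and 8 were lower, 25 in all, where 21.8% of all genes tested were higher and 37.7% lower, 59.4% in all. The libraries did not overlap in 26 of the 34, against 65.3% of all genes tested. The 17 were Cdk1, Ccna2, Ccnb1, Ccnb2, Aurka, Aurkb, Plk1, Kif20a, Kif22, Kif2c, Cenpa, Mad2l1, Cdc20, Incenp, Birc5, Cdca8 and Racgap1, and the 8 were Ttk, Kif11, Kif23, Kif4, Ndc80, Anln, Prc1 and Ect2. Of the 17, 3 were at least 2-fold higher (Ccnb1, Aurka and Cdca8), and of the 8, 6 were at least 2-fold lower (Ttk, Kif23, Kif4, Ndc80, Anln and Ect2). The median was 0.38, beside -0.11 for all genes tested, a background that moved to -0.02 with median-of-ratios scaling and to 0.02 with quantile normalization. The counts of all genes tested moved with it: 3093 were higher and 5353 lower as deposited, and 4149 and 4341 with median-of-ratios scaling, where the 34 had 19 higher and 7 lower. Of the 30 genes with 1 TPM or more in a library of every group, 17 were higher and 5 lower. Without a filter on low values, the 40 genes gave 18 higher and 8 lower, the added one being Mki67.

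All genes of mitotic entry except Cdc25c were higher in Ad-shJP2. Of the 5 genes 4 were higher and none was lower in Ad-shJP2 than in Ad-GFP (21.8% and 37.7% of all genes tested), with a median difference of 0.55. In Ad-JP2 against Ad-GFP 1 was lower and none higher (1.64% and 13.4%). Cdk1, the kinase that drives cells into mitosis, had 98.6, 101 and 98.1 TPM in Ad-JP2, 218, 220.1 and 214 TPM in Ad-shJP2 and 109, 115 and 115 TPM in Ad-GFP. The groups do not overlap: Ad-shJP2 was highest and Ad-JP2 lowest. Cdk1 was 1.92-fold higher in Ad-shJP2 than in Ad-GFP (log2 difference 0.94, SE 0.03, adjusted p = 2.19e-08), and the smaller fall in Ad-JP2 was by 0.19 (SE 0.03, adjusted p = 0.00249). Ccnb1, cyclin B1 and the main partner of Cdk1 at entry, had 17.4, 18.1 and 20.2 TPM in Ad-JP2, 47.6, 37.9 and 47.6 TPM in Ad-shJP2 and 21.9, 18.5 and 19.3 TPM in Ad-GFP. It was 2.23-fold higher in Ad-shJP2 than in Ad-GFP (log2 difference 1.11, SE 0.10, adjusted p = 1.41e-05), and Ad-JP2 and Ad-GFP overlapped (adjusted p = 0.64). Ccna2, cyclin A2, which acts from S phase to early mitosis, averaged 26.5 ± 1.58 TPM in Ad-JP2, 38.7 ± 2.28 TPM in Ad-shJP2 and 26.1 ± 0.288 TPM in Ad-GFP (SD, n = 3 each), and was 1.48-fold higher in Ad-shJP2 than in Ad-GFP. Ccnb2, the second mitotic B-type cyclin, had 31.9, 31.1 and 32.0 TPM in Ad-JP2, 43.7, 44.5 and 45.3 TPM in Ad-shJP2 and 32.6, 34.7 and 34.4 TPM in Ad-GFP, a 1.31-fold rise in Ad-shJP2. Cdc25c, a phosphatase that activates Cdk1, had 5.53, 4.81 and 5.42 TPM in Ad-JP2, 9.79, 12.1 and 8.14 TPM in Ad-shJP2 and 6.01, 4.95 and 9.60 TPM in Ad-GFP. The third Ad-GFP library lay within the Ad-shJP2 range, and the difference of 0.52 (SE 0.21) did not pass (adjusted p = 0.0554). Without that library it was 0.76 (adjusted p = 0.00374), and without the third Ad-shJP2 library 0.64 (adjusted p = 0.0381).

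Of the 6 mitotic kinases, 2 were higher and none lower in Ad-JP2 than in Ad-GFP, beside 13.4% and 1.64% of all genes tested. Those 2, Ttk and Bub1, would not have been tested without their Ad-JP2 libraries, so this count cannot be read against these shares. In Ad-shJP2 against Ad-GFP 3 were higher and 1 lower, beside 21.8% and 37.7%. That is 66.7% called in either direction, near the 59.4% of all genes tested. Those higher in Ad-shJP2 (Aurka, Aurkb and Plk1) were abundant, and those higher in Ad-JP2 (Ttk and Bub1) were scarce. Aurka, the spindle pole kinase Aurora A, had 28.5, 30.3 and 29.1 TPM in Ad-JP2, 83.3, 79.6 and 82.6 TPM in Ad-shJP2 and 31.5, 30.6 and 30.4 TPM in Ad-GFP. At 2.65-fold it was the largest rise among the 34 in Ad-shJP2 against Ad-GFP, by ratio of means (log2 difference 1.38, SE 0.04, adjusted p = 9.46e-09). Plk1, polo-like kinase 1, which acts at spindle poles, kinetochores and the midbody, had 38.7, 39.0 and 38.8 TPM in Ad-JP2, 77.0, 78.8 and 78.8 TPM in Ad-shJP2 and 40.6, 41.1 and 40.7 TPM in Ad-GFP, a 1.92-fold rise in Ad-shJP2 (log2 difference 0.92, adjusted p = 1.89e-08). Aurkb, Aurora B, the kinase of the chromosomal passenger complex, had 16.2, 16.3 and 17.9 TPM in Ad-JP2, 31.9, 32.2 and 30.9 TPM in Ad-shJP2 and 17.9, 20.1 and 18.3 TPM in Ad-GFP, and was 1.69-fold higher in Ad-shJP2. For none of these 3 kinases did Ad-JP2 against Ad-GFP pass the test (adjusted p = 0.287 for Aurka, 0.164 for Plk1 and 0.132 for Aurkb). Ttk, the checkpoint kinase also known as Mps1, had 1.89, 1.85 and 1.88 TPM in Ad-JP2, 0.093, 0.187 and 0.368 TPM in Ad-shJP2 and 0.677, 0.982 and 1.10 TPM in Ad-GFP. The groups do not overlap, and the order is the reverse of that of the Aurora kinases. Ttk was 2.04-fold higher in Ad-JP2 (adjusted p = 0.0117) and 4.25-fold lower in Ad-shJP2 (adjusted p = 0.0016) than in Ad-GFP; its first Ad-shJP2 library lay below the 0.096 TPM that 3 reads give there. Bub1, the kinase that recruits checkpoint proteins to kinetochores, had 2.91, 3.04 and 3.06 TPM in Ad-JP2, 1.39, 0.593 and 0.218 TPM in Ad-shJP2 and 1.04, 0.791 and 0.834 TPM in Ad-GFP. It was 3.39-fold higher in Ad-JP2 than in Ad-GFP (log2 difference 1.09, SE 0.21, adjusted p = 0.00737), and the wide Ad-shJP2 libraries overlapped those of Ad-GFP (adjusted p = 0.499). Without the first Ad-shJP2 library, the highest of its group, Bub1 was lower in Ad-shJP2 by 0.44 (adjusted p = 0.0275). Bub1b, which encodes the checkpoint protein BubR1, had 9.33, 15.5 and 11.7 TPM in Ad-JP2, 17.6, 17.1 and 19.8 TPM in Ad-shJP2 and 13.7, 14.1 and 14.0 TPM in Ad-GFP, and neither comparison with Ad-GFP passed (adjusted p = 0.444 for Ad-JP2 and 0.0585 for Ad-shJP2). The first Ad-JP2 library was the lowest of the 9 and the second was above Ad-GFP. Without that second library Bub1b was lower in Ad-JP2 by 0.38 (adjusted p = 0.0452), and without the first or the second the difference of 0.36 in Ad-shJP2 passed (adjusted p = 0.0147 and 0.00873).

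Among the kinesins, 6 of 9 were tested. Against Ad-GFP, 3 were higher and none lower in Ad-JP2, beside 13.4% and 1.64% of all genes tested. In Ad-shJP2 3 were higher and 3 lower, beside 21.8% and 37.7%. Kif11 entered the test through its Ad-JP2 libraries alone, so the count in Ad-JP2 cannot be read against these shares alone. Kif23, the motor subunit of centralspindlin that bundles the central spindle, had 14.8, 23.5 and 15.6 TPM in Ad-JP2, 2.46, 3.73 and 2.49 TPM in Ad-shJP2 and 9, 9.85 and 8 TPM in Ad-GFP. It was 2.01-fold higher in Ad-JP2 (log2 difference 0.91, SE 0.18, adjusted p = 0.00892) and 3.09-fold lower in Ad-shJP2 than in Ad-GFP (log2 difference -1.37, SE 0.18, adjusted p = 0.000178). The second Ad-JP2 library was the highest, but the groups were apart without it too. Kif4, a chromosome-bound motor that also works at the central spindle, had 5.09, 5.07 and 5.30 TPM in Ad-JP2, 1.29, 1.06 and 0.982 TPM in Ad-shJP2 and 2.39, 2.54 and 2.78 TPM in Ad-GFP. It was 2.01-fold higher in Ad-JP2 (adjusted p = 0.000319) and 2.31-fold lower in Ad-shJP2 (adjusted p = 6.75e-05). Kif11, the motor Eg5 that pushes spindle poles apart, had 2.29, 2.29 and 2.26 TPM in Ad-JP2, 0.448, 0.507 and 0.397 TPM in Ad-shJP2 and 0.683, 0.707 and 0.765 TPM in Ad-GFP. Its 3.18-fold higher level in Ad-JP2 passed (adjusted p = 0.000123), and its difference of -0.24 in Ad-shJP2 passed narrowly (adjusted p = 0.0373). That second call was lost when any library except the second Ad-shJP2 one was left out (adjusted p = 0.0521 to 0.103). The other 3 tested kinesins followed the entry genes. Kif22, which moves chromosome arms outward, had 14.8, 13.2 and 14.5 TPM in Ad-JP2, 28.4, 30.6 and 31.8 TPM in Ad-shJP2 and 15.9, 16.2 and 15.4 TPM in Ad-GFP, a 1.91-fold rise in Ad-shJP2 (adjusted p = 1.98e-06). Kif20a, which brings the passenger complex to the central spindle, averaged 40.6 TPM in Ad-JP2, 65.6 TPM in Ad-shJP2 and 43.3 TPM in Ad-GFP and was 1.52-fold higher in Ad-shJP2. Kif2c, a depolymerase that corrects faulty attachments, had 20.4, 20.4 and 20.5 TPM in Ad-shJP2 against 14.9, 15.1 and 16.2 TPM in Ad-GFP, a 1.33-fold rise.

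At the kinetochore and centromere, 4 of 6 genes were tested. Cenpa, the histone H3 variant that marks centromeres, had 72.2, 71.9 and 75.9 TPM in Ad-JP2, 143, 149.5 and 152 TPM in Ad-shJP2 and 80.1, 86.6 and 86.7 TPM in Ad-GFP. As for Cdk1, Ad-shJP2 was highest, 1.76-fold above Ad-GFP (adjusted p = 4.21e-07), and Ad-JP2 lowest, where it fell by 0.20 on the log2 scale (adjusted p = 0.0106). Mad2l1, the checkpoint inhibitor of Cdc20, had 22.0, 22.1 and 22.5 TPM in Ad-JP2, 31.9, 30.4 and 34.2 TPM in Ad-shJP2 and 22.2, 24.9 and 24.1 TPM in Ad-GFP, a 1.36-fold rise in Ad-shJP2 (adjusted p = 0.00017). Ndc80, the microtubule-binding subunit of the complex of the same name, had 2.59, 2.81 and 2.72 TPM in Ad-JP2, 0.179, 0.466 and 0.339 TPM in Ad-shJP2 and 0.658, 0.842 and 1.21 TPM in Ad-GFP. It was 3.00-fold higher in Ad-JP2 (adjusted p = 0.000994) and 2.75-fold lower in Ad-shJP2 (adjusted p = 0.0084) than in Ad-GFP. Nuf2, which dimerizes with Ndc80, did not move with it: it had 9.72, 10.4 and 11.8 TPM in Ad-JP2, 10.0, 9.17 and 10.6 TPM in Ad-shJP2 and 9.40, 9.66 and 10.6 TPM in Ad-GFP, overlapping in all 3 groups, with no call.

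Of the anaphase trigger, Cdc20, the activator of the anaphase-promoting complex, had 70.7, 69.1 and 63.8 TPM in Ad-JP2, 125, 127 and 131 TPM in Ad-shJP2 and 70.0, 68.9 and 71.0 TPM in Ad-GFP. It was 1.82-fold higher in Ad-shJP2 than in Ad-GFP (adjusted p = 2.52e-07) and overlapped between Ad-JP2 and Ad-GFP (adjusted p = 0.578). Espl1, separase, had 6.42, 8.25 and 8.2 TPM in Ad-JP2, 10.8, 5.81 and 10.4 TPM in Ad-shJP2 and 5.38, 11.5 and 6.20 TPM in Ad-GFP. The libraries of a group spread over as wide a range as the groups themselves, and no difference was called.

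The chromosomal passenger complex, which corrects attachments and later marks the division plane, was higher in Ad-shJP2 in all its subunits. Besides Aurkb, 3 of 3 were higher in Ad-shJP2 than in Ad-GFP (21.8% of all genes tested), with a median of 0.88. None was called in Ad-JP2 against Ad-GFP (15% of all genes tested). Cdca8, borealin, had 29, 29.9 and 28.1 TPM in Ad-JP2, 69.1, 63.2 and 62.8 TPM in Ad-shJP2 and 29, 30.5 and 31.6 TPM in Ad-GFP, a 2.14-fold rise in Ad-shJP2 (log2 difference 1.07, SE 0.05, adjusted p = 2.31e-07). Birc5, survivin, had 46.4, 47.1 and 49.6 TPM in Ad-JP2, 95.9, 92.6 and 99.2 TPM in Ad-shJP2 and 50.8, 51.0 and 53.0 TPM in Ad-GFP, 1.86-fold higher in Ad-shJP2 (adjusted p = 1.68e-07). Incenp, the scaffold that activates Aurora B, had 15.6, 17.2 and 17.2 TPM in Ad-JP2, 27.3, 26.7 and 28.0 TPM in Ad-shJP2 and 17.4, 17.6 and 17.1 TPM in Ad-GFP, 1.57-fold higher in Ad-shJP2 (adjusted p = 5.82e-06).

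Among genes of the spindle and of mitotic chromosomes, 4 of 5 were tested. Of these, 2 were higher in Ad-JP2 than in Ad-GFP, beside 13.4% of all genes tested. None was called in Ad-shJP2 against Ad-GFP, beside 59.4%. Hmmr, 1 of the 2, entered the test through its Ad-JP2 libraries alone, so the count of 2 cannot be read against the 13.4% alone. Top2a, the topoisomerase that untangles sister chromatids, had 12.3, 14.0 and 14.3 TPM in Ad-JP2, 2.82, 4.06 and 3.34 TPM in Ad-shJP2 and 4.52, 4.52 and 3.94 TPM in Ad-GFP. The Ad-JP2 libraries stood clear of the rest at 3.13-fold the Ad-GFP mean (log2 difference 1.45, SE 0.11, adjusted p = 4.03e-05), and Ad-shJP2 overlapped Ad-GFP (adjusted p = 0.0559). Without the second Ad-shJP2 library Top2a was lower in Ad-shJP2 by 0.39 (adjusted p = 0.012). Hmmr, a microtubule-associated protein of spindle poles, had 1.54, 1.74 and 1.98 TPM in Ad-JP2, 0.752, 0.684 and 0.834 TPM in Ad-shJP2 and 0.793, 0.896 and 0.895 TPM in Ad-GFP, 2.04-fold higher in Ad-JP2 (adjusted p = 0.00441). Nusap1, which bundles spindle microtubules, had 6.85, 6.94 and 7.88 TPM in Ad-JP2, 5.26, 4.23 and 3.88 TPM in Ad-shJP2 and 4.76, 5.48 and 5.87 TPM in Ad-GFP. All Ad-JP2 libraries were above all Ad-GFP ones, but the difference of 0.37 did not pass (adjusted p = 0.0571). Without the first Ad-shJP2 library it did (adjusted p = 0.0294), and Nusap1 was then also lower in Ad-shJP2 than in Ad-GFP, by 0.33 (adjusted p = 0.0245). Tpx2, the activator of Aurora A on the spindle, did not share the rise of Aurka: it had 27.4, 33.7 and 32.0 TPM in Ad-JP2, 26.1, 27.4 and 25.5 TPM in Ad-shJP2 and 31.5, 34 and 26.1 TPM in Ad-GFP, with no call. Without the third Ad-GFP library Tpx2 was lower in Ad-shJP2 than in Ad-GFP by 0.30 (adjusted p = 0.0197).

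Most cytokinesis genes had opposite differences in the comparisons of Ad-JP2 and Ad-shJP2 with Ad-GFP. Of 4 genes, 3 were higher in Ad-JP2 and the same 3 lower in Ad-shJP2 than in Ad-GFP, with medians of 0.59 and -0.70. Racgap1 was higher in Ad-shJP2. Of all genes tested, 13.4% were higher in Ad-JP2, and 37.7% were lower and 21.8% higher in Ad-shJP2. Anln, anillin, the scaffold of the contractile ring, had 28.1, 29.2 and 29.2 TPM in Ad-JP2, 4.58, 4.10 and 5.71 TPM in Ad-shJP2 and 10.4, 9.67 and 11.3 TPM in Ad-GFP. It was 2.76-fold higher in Ad-JP2 (log2 difference 1.38, SE 0.10, adjusted p = 2.84e-05) and 2.18-fold lower in Ad-shJP2 (log2 difference -0.99, SE 0.10, adjusted p = 2.83e-05). Ect2, which activates RhoA at the equator, had 6.59, 5.98 and 4.73 TPM in Ad-JP2, 0.959, 0.916 and 1.17 TPM in Ad-shJP2 and 3.10, 2.57 and 2.29 TPM in Ad-GFP. The 3 groups do not overlap; Ect2 was 2.17-fold higher in Ad-JP2 (adjusted p = 0.0015) and 2.62-fold lower in Ad-shJP2 (adjusted p = 0.000382). Prc1, the crosslinker of the central spindle, had 38.7, 42.9 and 41.6 TPM in Ad-JP2, 23.8, 23.4 and 21.0 TPM in Ad-shJP2 and 33.0, 34.2 and 32.8 TPM in Ad-GFP, 1.23-fold higher in Ad-JP2 (adjusted p = 0.00802) and 1.47-fold lower in Ad-shJP2 (adjusted p = 4.42e-05). Racgap1 encodes the partner of Kif23 in centralspindlin and had 40.1, 38.4 and 39.3 TPM in Ad-JP2, 65.8, 63.0 and 64.6 TPM in Ad-shJP2 and 37.8, 38.7 and 39.6 TPM in Ad-GFP. It was 1.67-fold higher in Ad-shJP2 than in Ad-GFP (log2 difference 0.72, SE 0.03, adjusted p = 2.59e-07), where Kif23 was lower, so the centralspindlin subunits were called in opposite directions.

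**Figure D2:**
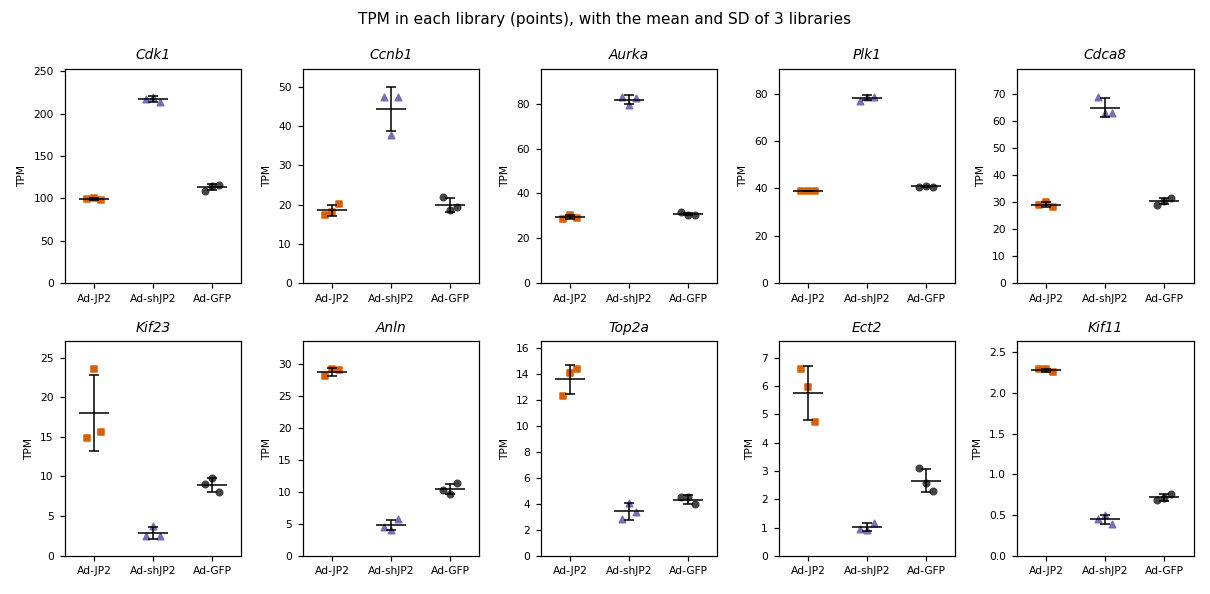
TPM of 10 genes in each library (points), with bars for the mean and SD of the 3 libraries of Ad-JP2, Ad-shJP2 and Ad-GFP; each panel has its own axis from 0. In the upper row (Cdk1, Ccnb1, Aurka, Plk1 and Cdca8) the Ad-shJP2 libraries are highest, and in the lower row (Kif23, Anln, Top2a, Ect2 and Kif11) the Ad-JP2 libraries are highest.

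Set directly against each other, Ad-JP2 and Ad-shJP2 differed in more of these genes than either did from Ad-GFP: 12 of 34 were higher in Ad-JP2 than in Ad-shJP2 and 19 lower, 31 in all, where 40.3% of all genes tested were higher and 24.1% lower, 64.4% in all. The libraries did not overlap in 31 of the 34, against 67.1% of all genes tested. The median was -0.51, beside 0.10 for all genes tested, a background that moved to -0.02 with median-of-ratios scaling and to -0.11 with quantile normalization. All genes tested had 5731 higher and 3421 lower as deposited, and 4680 and 4709 with median-of-ratios scaling, where the counts of 12 and 19 among the 34 did not change. Of the 30 genes with 1 TPM or more in a library of every group, 8 were higher and 19 lower. The 8 include Bub1, which was tested only because of its Ad-JP2 libraries. All 5 entry genes, 4 of 6 kinases and the 3 passenger subunits were lower in Ad-JP2, led by Aurka (log2 difference -1.45, adjusted p = 3.55e-09), Ccnb1 (-1.21, adjusted p = 5.77e-06) and Cdk1 (-1.12, adjusted p = 3.94e-09). Cdc25c and Bub1b, with no call against Ad-GFP, were lower in Ad-JP2 than in Ad-shJP2 by 0.80 and 0.56 (adjusted p = 0.00726 and 0.00733). The higher ones were led by Anln at 6.01-fold (log2 difference 2.37, adjusted p = 6.5e-08), Kif23 at 6.22-fold (2.27, adjusted p = 4.41e-06), Ect2 at 5.68-fold (1.74, adjusted p = 2.52e-06) and Top2a at 3.98-fold (1.73, adjusted p = 1.01e-06). Ttk and Ndc80 stood at 8.67-fold and 8.25-fold by ratio of means, from the scarcest levels in Ad-shJP2. Nuf2, Espl1 and Tpx2 were not called; Tpx2 passed without the third Ad-GFP library (0.22, adjusted p = 0.0356) or the first Ad-JP2 library (0.31, adjusted p = 0.0267).

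**Figure D3:**
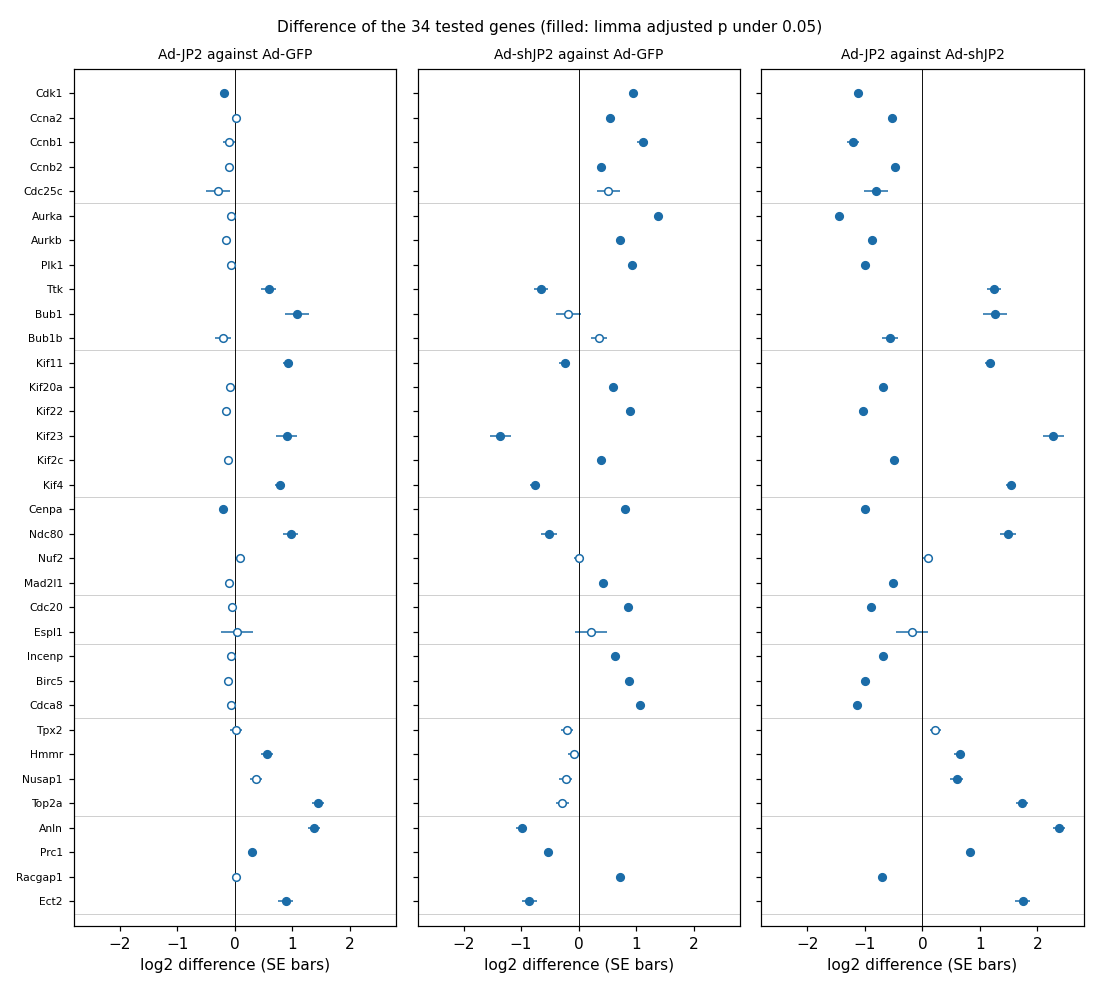
Log2 difference of the 34 tested genes on the log2(TPM + 1) scale (horizontal axis, bars for the SE) in Ad-JP2 against Ad-GFP, Ad-shJP2 against Ad-GFP and Ad-JP2 against Ad-shJP2, with filled points for an adjusted p under 0.05; lines part the roles. Of the filled points, 11 and 2 lie right and left of 0 in the first panel, 17 and 8 in the second, and 12 and 19 in the third.

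The 6 genes that were not tested were Kif15, Kif18a, Kif20b, Cenpe, Cenpf and Mki67, and none of their 54 library values reached 1 TPM. Mki67, which encodes the proliferation antigen Ki-67 that coats mitotic chromosomes, had 0.310, 0.169 and 0.262 TPM in Ad-JP2, 0.404, 0.471 and 0.514 TPM in Ad-shJP2 and 0.217, 0.241 and 0.295 TPM in Ad-GFP. The Ad-shJP2 libraries were above all others, and in the fit without a filter the difference of 0.23 from Ad-GFP passed (adjusted p = 0.0158). Cenpf, a protein of the outer kinetochore, had 0.109, 0.142 and 0.171 TPM in Ad-JP2, 0.815, 0.144 and 0.247 TPM in Ad-shJP2 and 0.208, 0.235 and 0.154 TPM in Ad-GFP, where 1 Ad-shJP2 library stood above the rest. The kinesin Kif15 lay between 0.248 and 0.882 TPM over the 9 libraries. Cenpe, a kinetochore motor, and the kinesins Kif18a and Kif20b were above the level of 3 reads in 4, 3 and 3 of 9 libraries, so differences in them are poorly resolved at this depth. Cenpe had 0.303, 0.459 and 0.349 TPM in Ad-GFP and 0.133, 0.156 and 0.124 TPM in Ad-shJP2, without overlap. In the fit without a filter its difference of -0.27 did not pass (adjusted p = 0.0708). Its Ad-JP2 libraries had 0.039, 0.141 and 0.372 TPM. The deposited gene length was 715 bases for Cenpe and 1716 for Kif20b, where the longest coding transcripts in GENCODE M21 are 7910 and 5564 bases, and a TPM depends on the length used. Some tested genes had such gaps too, as Cdk1 (972 and 4375 bases), Kif23 (1787 and 3398) and Mad2l1 (1735 and 7557), while Plk1 had 2199 for both. The correction for GC content and length below rests on the deposited lengths.

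Transcript GC content moved with these differences. Over the 34 tested genes the correlation of GC content with the log2 difference was -0.698 in Ad-JP2 against Ad-GFP, 0.678 in Ad-shJP2 against Ad-GFP and -0.722 in Ad-JP2 against Ad-shJP2 (Pearson, across genes that share the same libraries). Over the 14025 tested genes with a known GC content it was -0.422, 0.321 and -0.428. Longer transcripts went with the low-GC side: the correlation with log length over the 34 was 0.614 and -0.579 in the comparisons of Ad-JP2 and Ad-shJP2 with Ad-GFP. Anln has the lowest GC content of the 34 (37.07%) and Plk1 the highest (55.98%). Of the 24 genes below the median GC content of all tested genes (50.74%), 11 were higher and none lower in Ad-JP2 than in Ad-GFP, and 7 were higher and 8 lower in Ad-shJP2. All tested genes below that median gave 24.6% higher and 1.27% lower in Ad-JP2, and 13.8% higher and 48.7% lower in Ad-shJP2. Of the 10 genes at or above it, none was higher and 2 were lower in Ad-JP2, and all 10 were higher in Ad-shJP2, where 30% of all tested genes of that class were higher. GC content also moved with level, with a correlation of 0.671 with the log2 mean in Ad-GFP over all 40 genes, so GC content and level cannot be told apart among these genes.

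Values were therefore also fitted after a loess correction for GC content and length in each library. Ad-shJP2 against Ad-GFP then had 22 of 34 higher and 2 lower (28.7% and 26% of all tested genes), with a median of 0.54. All 17 genes that were higher before were among them, Aurka at 1.40, Cdk1 at 0.89, Ccnb1 at 1.47 and Cdca8 at 1.04; the other 5 were Bub1b, Kif11, Nuf2, Hmmr and Top2a. Of the 8 lower genes, Kif23 (-1.17, adjusted p = 0.000633) and Anln (-0.26, adjusted p = 0.0434) were still called lower. Ttk, Kif4, Ndc80, Prc1 and Ect2 were not (-0.13, -0.24, -0.12, -0.14 and -0.17), and Kif11 turned to 0.45 (adjusted p = 0.00241). Ad-JP2 against Ad-GFP had 5 higher and 3 lower (5.62% and 4.26% of all tested genes), with a median of -0.06. Those higher were Top2a (0.96, adjusted p = 0.00119), Kif23 (0.84, adjusted p = 0.0215), Ndc80 (0.77, adjusted p = 0.00708), Anln (0.59, adjusted p = 0.00517) and Kif4 (0.52, adjusted p = 0.00757). Those lower were Mad2l1 (-0.37, adjusted p = 0.00285), Kif20a (-0.20, adjusted p = 0.00776) and Cdk1 (-0.13, adjusted p = 0.021). The calls of Ttk, Bub1, Kif11, Hmmr, Prc1, Ect2 and Cenpa were lost. Ad-JP2 against Ad-shJP2 had 8 higher and 22 lower (27.8% and 32%), with a median of -0.70. Whether GC content or length itself set the uncorrected differences was not tested.

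**Figure D4:**
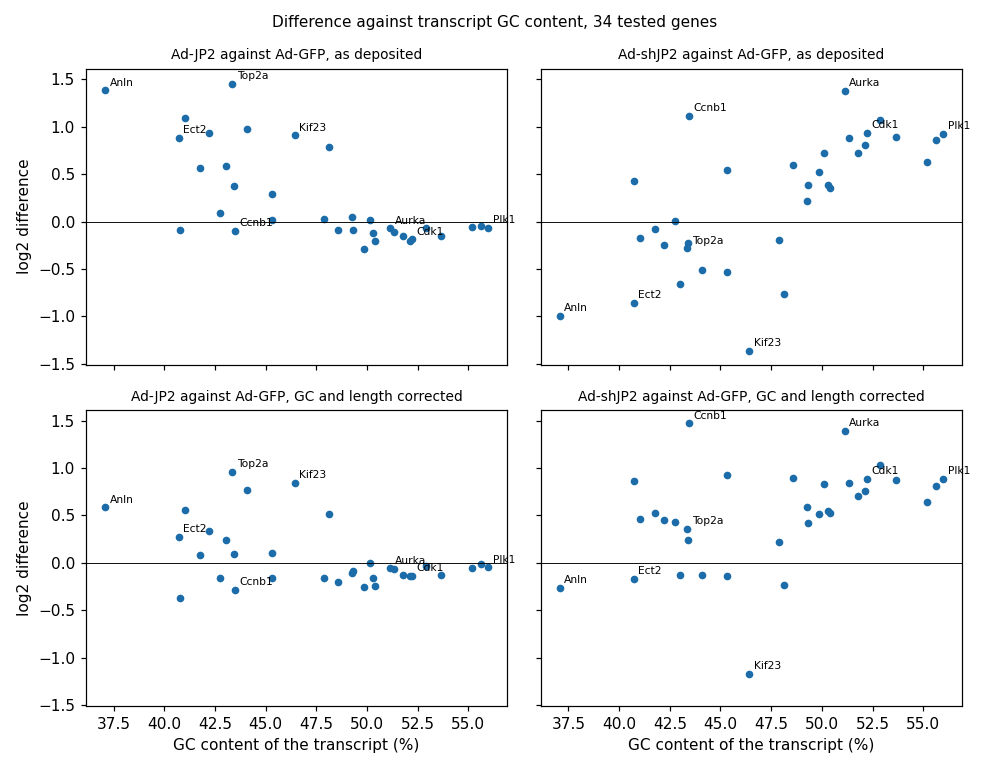
Log2 difference (vertical axis) against transcript GC content in percent (horizontal axis) for the 34 tested genes, in Ad-JP2 against Ad-GFP (left) and Ad-shJP2 against Ad-GFP (right), as deposited (top) and after correction for GC content and length (bottom). The slopes at the top, with correlations of -0.698 and 0.678, are shallower at the bottom (-0.441 and 0.431); Kif23 stays at -1.17 in Ad-shJP2 and Aurka at 1.40.

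Beyond the 40 genes, 153 other genes of the pathway in 8 lists were followed, of which 139 were tested. In Ad-JP2 against Ad-GFP 33 were higher and 4 lower, in Ad-shJP2 against Ad-GFP 60 were higher and 33 lower, and in Ad-JP2 against Ad-shJP2 50 were higher and 56 lower. As shares of the 139 these are 23.7% and 2.88%, 43.2% and 23.7%, and 36% and 40.3%. All genes tested had 13.4% and 1.64%, 21.8% and 37.7%, and 40.3% and 24.1%, and the counts per list below are set beside the same shares. The 33 include Ncapg, Ncapg2, Cep192 and Cenpc1, whose means were under 1 TPM in both Ad-shJP2 and Ad-GFP. Their passing the filter leaned on Ad-JP2. Counts in Ad-JP2 that include them, here and in their lists, can therefore not be read against the shares alone. After the correction for GC content and length the counts were 10 and 6 in Ad-JP2 against Ad-GFP, 86 and 14 in Ad-shJP2 against Ad-GFP, and 25 and 83 in Ad-JP2 against Ad-shJP2. All genes tested then had 5.62% and 4.26%, 28.7% and 26%, and 27.8% and 32%. Cohesin, the ring that holds sister chromatids together, gave the highest share in Ad-JP2 among these lists: of 10 tested genes of cohesin and its regulators, 8 were higher and none lower than in Ad-GFP, where 13.4% of all genes tested, and 24.6% of those below the median GC content, were higher. The median GC content of this list is 42.77%, and after the correction 3 of the 10 were higher and none lower, with a median of 0.06 in place of 0.77. In Ad-shJP2 against Ad-GFP 2 were higher and 4 lower, and 6 and 1 after the correction. Pds5a, a cohesin regulator, averaged 16.6 ± 1.77 TPM in Ad-JP2, 4.02 ± 2.19 TPM in Ad-shJP2 and 5.16 ± 0.506 TPM in Ad-GFP (SD, n = 3 each), a difference of 1.52 in Ad-JP2 against Ad-GFP (adjusted p = 0.00265). Smc1a, a core ring subunit, had 7.47, 8.43 and 8.45 TPM in Ad-JP2, against 2.39, 2.38 and 2.09 TPM in Ad-GFP, a difference of 1.47 (adjusted p = 0.000213). Rad21, the subunit that separase cuts, had 15.6, 13.5 and 14.4 TPM in Ad-shJP2, against 28.3, 26.6 and 28.1 TPM in Ad-GFP, and was lower by 0.89 (adjusted p = 1.32e-06). After the correction these differences were 1.13 for Pds5a, 1.16 for Smc1a and -0.30 for Rad21, and all were still called.

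Among regulators of late cell-cycle transcription, Mybl2 was several fold higher in Ad-shJP2, as was Ccnf among the regulators of entry. Of 15 tested transcription regulators, 8 were higher and 4 lower in Ad-shJP2 than in Ad-GFP (9 and 2 after the correction), beside 21.8% and 37.7% of all genes tested. Mybl2, which encodes B-Myb, an activator of promoters with the elements printed above, had 4.75, 4.62 and 4.86 TPM in Ad-JP2, 19.1, 18.6 and 18.9 TPM in Ad-shJP2 and 4.82, 4.46 and 4.54 TPM in Ad-GFP. The Ad-shJP2 libraries were apart from all others at 4.10-fold the Ad-GFP mean (log2 difference 1.83, adjusted p = 1.82e-08; 1.84 after the GC and length correction). Rbl2, which encodes p130, the pocket protein of the repressive form of the same complex, had 8.22, 7.20 and 7.99 TPM in Ad-JP2, 2.51, 1.31 and 1.77 TPM in Ad-shJP2 and 4.92, 6.43 and 6.74 TPM in Ad-GFP, lower by 1.31 in Ad-shJP2 (adjusted p = 9.54e-05). Its difference after the correction was -0.86 (adjusted p = 0.0015). Foxm1, a late cell-cycle transcription factor named here after its values were seen, had 13.5, 13 and 12.8 TPM in Ad-JP2, 25.7, 21.6 and 23.1 TPM in Ad-shJP2 and 16, 14.2 and 15.7 TPM in Ad-GFP, a rise of 0.58 in Ad-shJP2 (adjusted p = 9.68e-05). Among 15 other tested regulators of entry, 6 were higher and 1 lower in Ad-shJP2 (10 and 0 after the correction). Ccnf, cyclin F, had 9.36, 8.85 and 8.54 TPM in Ad-JP2, 36.5, 35.0 and 36.0 TPM in Ad-shJP2 and 9.10, 8.79 and 10.1 TPM in Ad-GFP, a 3.84-fold rise in Ad-shJP2 (adjusted p = 2.89e-08). For Mybl2 and Ccnf, Ad-JP2 overlapped Ad-GFP.

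Of the anaphase-promoting complex and its partners, 1 of 18 was higher in Ad-JP2, under the 13.4% of all genes tested, and 9 were higher and 4 lower in Ad-shJP2, beside 21.8% and 37.7%. After the correction none was called in Ad-JP2, while Ad-shJP2 had 10 higher and 2 lower. Ube2c, the ubiquitin-conjugating enzyme of the complex, had 81.5, 88.6 and 86.3 TPM in Ad-JP2, 162, 168 and 166 TPM in Ad-shJP2 and 95, 92.0 and 91.2 TPM in Ad-GFP, higher by 0.83 in Ad-shJP2 (adjusted p = 1.35e-07). Cdc27, a subunit of the complex, had 8.22, 8.63 and 8.45 TPM in Ad-JP2, 1.41, 1.92 and 1.59 TPM in Ad-shJP2 and 3.03, 4.54 and 3.70 TPM in Ad-GFP, with differences of 1.00 and -0.84 from Ad-GFP that were not called after the correction (0.44 and -0.17). Among 27 other tested spindle and centrosome genes, 10 were higher and 1 lower in Ad-JP2 (13.4% and 1.64% of all genes tested), and 12 were higher and 6 lower in Ad-shJP2 (21.8% and 37.7%). After the correction 4 and 1, and 17 and 2, were called. The 10 include Cep192, which averaged 2.46 TPM in Ad-JP2 but 0.625 TPM in Ad-shJP2 and 0.716 TPM in Ad-GFP. Its passing the filter leaned on Ad-JP2, so the count of 10 cannot be read against the 13.4% alone. The largest rises in Ad-shJP2 were those of Haus8, a subunit of augmin, which branches spindle microtubules (1.12, adjusted p = 1.28e-06), the kinesin Kif18b (1.09, adjusted p = 1.11e-06) and the spindle protein Fam83d (0.99, adjusted p = 8.27e-07), and all 3 were still called after the correction. Ckap2, a microtubule-associated protein of the spindle, had 13.8, 14.6 and 14.0 TPM in Ad-JP2, 1.99, 2.78 and 1.82 TPM in Ad-shJP2 and 4.71, 6.29 and 4.89 TPM in Ad-GFP. Its order was that of Anln and Kif23, with differences of 1.28 and -0.98 from Ad-GFP, and both were still called after the correction (0.95 and -0.47). Of 33 other tested kinetochore genes, 4 were higher and 1 lower in Ad-JP2, near the share of all genes tested, and 16 were higher and 6 lower in Ad-shJP2, beside 21.8% and 37.7%. After the correction 1 and 2, and 22 and 3, were called. Spdl1, an adaptor of dynein at kinetochores, was higher by 1.05 in Ad-JP2 (adjusted p = 0.00194; 0.90 after the correction). Mis12, which joins the inner and the outer kinetochore, was lower by 0.95 in Ad-shJP2 (adjusted p = 0.000127). Its difference after the correction was -0.55 (adjusted p = 0.00389).

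Other cytokinesis genes gave 5 higher and 1 lower of 15 tested in Ad-JP2, and 5 higher and 7 lower in Ad-shJP2, beside 13.4% and 1.64%, and 21.8% and 37.7%, of all genes tested. After the correction 1 was higher and 1 lower in Ad-JP2, and 7 were higher and 4 lower in Ad-shJP2. Chmp1b, a subunit of the machinery that cuts the final bridge between daughter cells, had 29.3, 30.5 and 30.0 TPM in Ad-JP2, 7.57, 6.38 and 6.52 TPM in Ad-shJP2 and 18.8, 18.5 and 17.7 TPM in Ad-GFP. It was higher by 0.68 in Ad-JP2 (adjusted p = 0.000123) and lower by 1.31 in Ad-shJP2 (adjusted p = 2.83e-07), and both calls remained after the correction (0.26 and -0.74). Condensin, which compacts chromosomes, had 2 of 6 higher and none lower in Ad-JP2, and 2 higher and 1 lower in Ad-shJP2, beside the same shares. The 2 higher in Ad-JP2 were the condensin subunits Ncapg2 and Ncapg, by 0.96 and 0.93, and neither was called after the correction (adjusted p = 0.381 and 0.292). Both entered the test through their Ad-JP2 libraries alone, so a difference involving Ad-JP2 was built into their being tested. The count of 2 can therefore not be read against the share of all genes. Ncapd2, another subunit, was higher by 0.49 in Ad-shJP2 (adjusted p = 0.00334). After the correction none of the 6 was called in Ad-JP2, and 5 were higher and none lower in Ad-shJP2.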

How the data were processed

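The 9 libraries were polyadenylated RNA of cultured mouse cardiac fibroblasts, 3 per virus, prepared with a stranded mRNA kit, per the labels' protocols. The tools that the submitters' processing notes list are DRAGEN, Salmon and DESeq2, with the build GRCm39 and without roles or versions. The authors deposited 1 TPM value for each gene and library, with 2 columns of lengths in bases (other units), the gene length and the effective length, per the file headers. No source says whether counting used strand.

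A gene was tested if 3 or more libraries had 1 TPM or more, which left 14215 genes, as log2(TPM + 1), a scale that understates the change of low genes. All 9 libraries entered a single limma fit (version 3.58.1, R 4.3.3) of the 3 group means, with a mean-variance trend and 6 residual degrees of freedom, and tests were two-sided. Every adjusted p printed is limma's, with Benjamini-Hochberg adjustment over the whole set of tested genes. Fold values are ratios of group mean TPM. Depth came from the steps of low TPM multiplied by effective length. The correction for GC content and length was a loess fit per library (span 0.3), with GC content from the GENCODE M21 transcript (GRCm38) nearest in length to the deposited length. The fit was tested on simulated data.

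All 40 members are named; genes named from the other pathway lists come from the 3 largest called changes of a list in a comparison, not all of which are named, except Foxm1, chosen after its values were seen. Promoter stretches shown are from the largest called differences in Ad-shJP2 against Ad-GFP; 1 that the rule selected is not reported here. The members and lists were chosen with earlier results of these data known. No list test was made. The main fit did not pair libraries by replicate number, and whether equal numbers mark a shared culture or animal is not known.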

Additional observations from a re-analysis of the deposited data

How the results depend on the processing

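Counts are of the 34 tested genes; medians are log2. In Ad-JP2 against Ad-GFP the higher count was 5 with a filter of 5 TPM, 5 with the GC content and length correction and 5 with that correction and a replicate block. The lower count was 10 with quantile normalization and 4 with block and correction. In Ad-shJP2 against Ad-GFP the lower count was 4 with the 5 TPM filter, 2 with the correction and 2 with block and correction. Its median was 0.22 with no filter, 0.53 at 5 TPM, 0.49 with median-of-ratios scaling, 0.50 with quantile normalization, and 0.54 with the correction, with or without the block. In Ad-JP2 against Ad-shJP2 the higher count was 6 at 5 TPM. Its median was -0.25 with no filter, -0.62 at 5 TPM, -0.64 with median-of-ratios scaling, -0.67 with quantile normalization and -0.70 with the correction, with or without the block. The filters change which genes are counted; for the other settings the cause was not tested. Leaving out each library in turn gave 11 to 12 higher and 2 to 3 lower in Ad-JP2 against Ad-GFP (median -0.05 to -0.00), 17 to 18 and 7 to 9 in Ad-shJP2 against Ad-GFP (median 0.36 to 0.41), and 12 to 13 and 19 in Ad-JP2 against Ad-shJP2 (median -0.53 to -0.48).

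Signs turned with the correction, with or without the block, in Ad-shJP2 against Ad-GFP for Kif11 (0.45), Hmmr (0.53) and Top2a (0.36), and in Ad-JP2 against Ad-shJP2 for Kif11 (-0.12), Nuf2 (-0.59), Tpx2 (-0.38), Hmmr (-0.44) and Nusap1 (-0.15). Quantile normalization turned Kif11 to 0.030 in Ad-shJP2 against Ad-GFP and Nuf2 to -0.24 in Ad-JP2 against Ad-shJP2. A result of a single gene counted as unchanged if its call held and no called difference turned sign. Of the 102 such results, 99 were unchanged with median-of-ratios scaling and 102 without a filter. A pseudocount of 0.1 left 100 unchanged and lost Ttk in Ad-JP2 against Ad-GFP (adjusted p = 0.106). With the GC content and length correction 77 were unchanged, 8 turned sign, 13 lost a call and 4 gained one. Quantile normalization left 88 unchanged, with 2 turned, 2 lost and 10 gained.

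Deviations of same-numbered libraries correlated at -0.113 to 0.11, and those of differently numbered ones at -0.196 to 0.155. With 3 libraries per group, this cannot exclude that same-numbered libraries share a culture or an animal. The replicate block changed 1 of the 102 results, Kif11 in Ad-shJP2 against Ad-GFP (-0.24, adjusted p = 0.0738). Depth limits the genes under 1 TPM, and the Ad-shJP2 libraries were the shallowest by the approximate depth estimates.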
